A study of Mus musculus with 6 samples.

Results

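The genes of inhibitory signalling by GABA and glycine were examined in whole mouse brains that lacked Mphosph8 in the nervous system. The 27 members were taken from a list of inhibitory receptor subunits, enzymes and transporters of the transmitters, the scaffold gephyrin and chloride transporters, and were matched by GENCODE M21 symbol to 27 of the 54532 gene identifiers counted in each library. All 27 passed the filter on low counts that kept 16731 genes for testing, with between 92 and 15946 counts per library. The brains came from C57BL/6J mice at postnatal day 14, with 1 library per brain. The 3 control brains were Mphosph8fl/+ Nestin-Cre+ per the labels and so kept 1 allele that cannot be recombined, and the 3 mutant brains were Mphosph8fl/fl Nestin-Cre+ (labelled Mphosph8∆n and called mutant here). Both groups carried Nestin-Cre, a recombinase driven in neural progenitors and their progeny, so cells outside that lineage, such as microglia and vessel cells, would keep the gene in a whole brain. Mphosph8 encodes MPP8, a subunit of the HUSH complex, which keeps genes and repeats silent where histone H3 carries the repressive K9 trimethyl mark.

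GABA and glycine are the main inhibitory transmitters of the brain, with glycine acting chiefly in the brainstem and spinal cord. GABA-A and glycine receptors are chloride channels made of subunits from several families, held at the synapse by gephyrin, whereas GABA-B receptors are G protein-coupled dimers. Whether an open chloride channel inhibits a neuron depends on the balance of chloride import and export, which shifts toward export as the brain matures after birth. In whole tissue, fewer cells of a type and less RNA per cell cannot be told apart.

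Depth ran from 12956880 to 15223424 counts per library. Mphosph8 was at 55.8, 48.6 and 70.7 CPM (counts scaled to a common library size) in the controls and at 33.1, 27.2 and 26.5 CPM in the mutants, with no overlap, and reads outside the deleted exon still count toward the gene. The libraries differed in ways the labels do not give. Control replicate 3 had 1338 counts of the Y-linked gene Ddx3y against 0 in every other library. Mutant replicate 3 had a summed level of 8.36 CPM for 14 Hox genes that mark the caudal hindbrain and spinal cord, against 30.3 to 35.0 CPM in the other 5 libraries. Mutant replicate 1 held the highest value of the 6 libraries for 12 of the 27 members (44.4%), against 21.6% of all genes tested, and control replicate 1 the lowest for 10 (37.0% against 17.8%). Members whose sign or call changed when 1 library was left out are given with their values without it, here or as a range in the closing section.

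None of the 27 members differed between genotypes at an adjusted p under 0.05 in edgeR's quasi-likelihood test, in either direction, and DESeq2 also gave 0. At an unadjusted p under 0.05 both tools gave 3 members (11.1%), against 6.51% of all genes in edgeR. Over all 16731 genes, 0.532% were higher and 0.0956% lower at the adjusted threshold, 0.628% together, and 0.359% also passed a 2-fold change, so a list of this length at the background rate would hold fewer than 1 such gene. The members' log2 fold changes (mutant over control) ran from -0.59 to 0.21 with a median of 0.02, beside a median of -0.01 over all genes, and 14 of 27 (51.9%) were above 0, against 47.6% of all genes. The standard errors ran from 0.08 to 0.22, and for 26 of the 27 members the 95% interval of the change lay within 1.5-fold in both directions, against 74.3% of all genes. The exception was Slc6a5, the neuronal glycine transporter. Standard errors over all genes ran from 0.07 to 0.84, so these shares compare genes of unequal precision. Of the 48 other pathway genes tested, described below, 93.8% had such an interval.

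**Figure D1:**
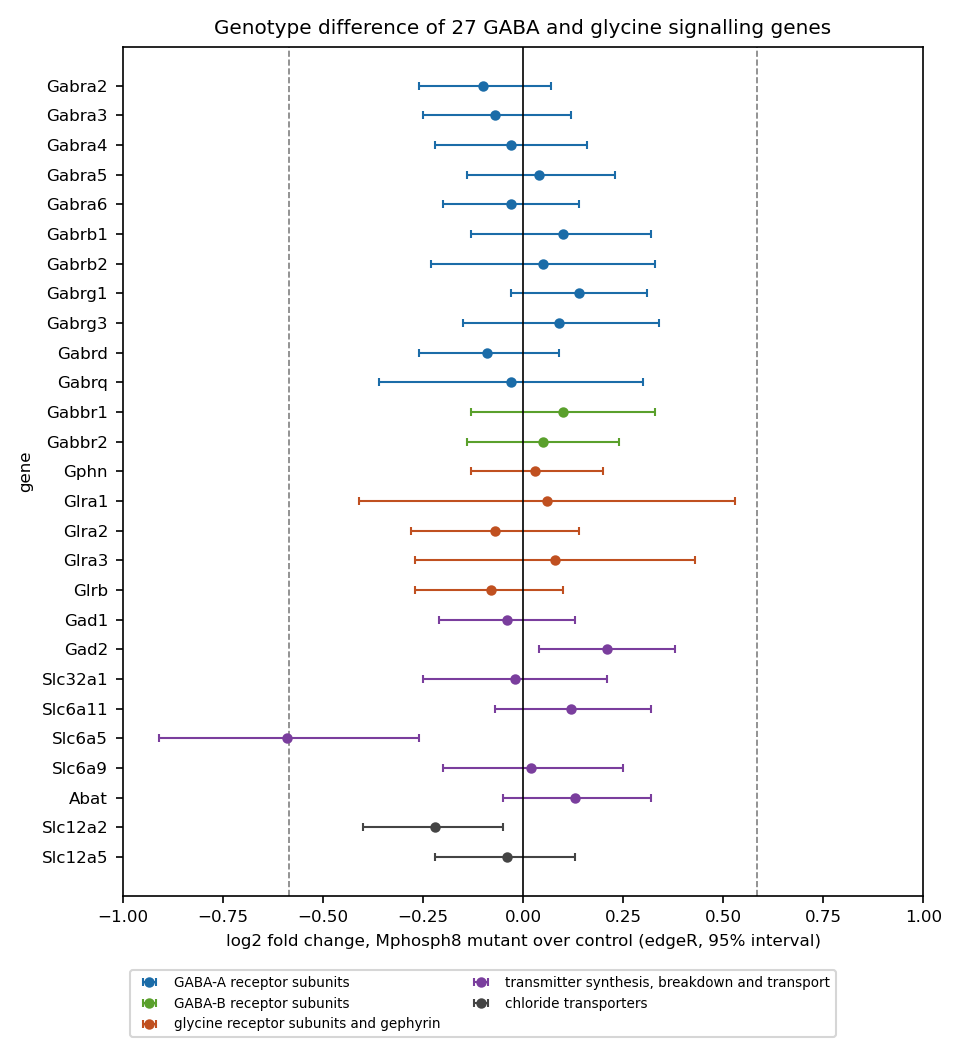
Log2 fold change (mutant over control, x axis) of each of the 27 members (y axis), coloured by role; points are edgeR estimates, bars 95% intervals, and dashed lines mark 1.5-fold. All intervals but that of Slc6a5 (-0.91 to -0.26) stay between the dashed lines, and those of Slc6a5, Slc12a2 and Gad2 leave out 0 before adjustment.

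Groups that did not overlap were found for 4 members. Gad2 and Abat were higher in every mutant library than in any control (7.41% of members, against 6.23% of all genes), and Slc6a5 and Slc12a2 were lower in every mutant library (7.41% against 5.42%). None of these 4 passed the adjusted threshold.

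GABA-A receptors are pentamers, and the mix of their subunits sets where they sit and how they respond. The 11 listed GABA-A subunits had log2 fold changes from -0.10 to 0.14, a median of -0.03 and adjusted p-values from 0.875 upward. The intervals of all 11 lay between -0.36 and 0.34. Per kilobase of exon, the scale used here for levels of different genes, Gabra6, an alpha subunit of cerebellar granule cells, was the highest, at 47.1 ± 3.92 CPM per kb in controls and 46.0 ± 0.985 in mutants (SD, n = 3). Next came Gabrd, the delta subunit of extrasynaptic receptors, at 24.2 ± 1.96 and 22.8 ± 0.151 CPM per kb, and Gabra3 at 19.7 ± 1.77 and 18.9 ± 1.33. Gabrq, the theta subunit, was the lowest, at 1.47 ± 0.209 and 1.44 ± 0.182 CPM per kb, and its log2 fold change of -0.03 ± 0.16 ran from -0.14 without control replicate 1 to 0.06 without mutant replicate 3.

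The mix of alpha subunits was then compared. Of the summed level per kilobase of the 5 listed alpha genes, Gabra6 made up 43.5% ± 3.21 in controls and 43.6% ± 1.05 in mutants. Gabra3 made up 18.2% ± 1.43 and 17.8% ± 0.811, and Gabra5, a largely extrasynaptic subunit rich in hippocampus, 16.5% ± 0.524 and 17.4% ± 1.48. Gabra2 stood at 11.7% ± 0.895 and 11.2% ± 0.576, and Gabra4, which can pair with delta, at 10.1% ± 1.08 and 10.1% ± 0.435. Each of these differences was within 1 SD of the controls apart from that of Gabra5, whose share in the mutants ran from 15.7% to 18.6% and enclosed the controls (16.0% to 17.0%). The shares cover the listed subunits alone.

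Among the GABA-A subunits, Gabrg1 had the smallest unadjusted p. It encodes a gamma subunit and was at 53.3, 54.1 and 60.9 CPM in the controls and 63.0, 62.0 and 60.5 CPM in the mutants. Control replicate 3 lay among the mutant values and the other controls below them. On the log2 scale the mutants stood at 0.14 ± 0.08 (SE) over the controls (adjusted p 0.875).

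Gabra2, an alpha subunit common at forebrain synapses, was at 89.6, 102 and 97.3 CPM in the controls and 87.7, 92.1 and 89.9 CPM in the mutants, so that control replicate 1 lay among the mutant values. Its log2 fold change was -0.10 ± 0.08, with an adjusted p of 0.921. Gabrd was at 75.5, 69.4 and 64.2 CPM against 65.3, 65.5 and 66.2 CPM, at -0.09 ± 0.08 and an adjusted p of 0.941. The mutant values of Gabrd were closely spaced and lay inside the range of the controls. The summed level of 7 markers of cerebellar granule cells, which carry much of the Gabrd and Gabra6 of the brain, overlapped between genotypes, at 1054 to 1221 CPM in controls and 1111 to 1149 CPM in mutants.

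The beta subunits Gabrb1 and Gabrb2 overlapped between genotypes. Gabrb2 was at 65.1, 75.3 and 91.6 CPM in controls and 99.9, 74.3 and 66.2 CPM in mutants, and its log2 fold change of 0.05 ± 0.13 became -0.14 without mutant replicate 1 and -0.06 without control replicate 1. Gabrb1 was at 136 ± 18.5 and 146 ± 20.3 CPM, with 0.10 ± 0.11. Gabrg3, another gamma subunit, was at 30.9 ± 4.69 and 32.9 ± 3.70 CPM, with 0.09 ± 0.12. The values of Gabrb1 and Gabrg3 were -0.01 and -0.0046 without mutant replicate 1, and -0.01 and -0.03 without control replicate 1, so their sign rested on either of these brains.

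Many GABA-A subunit genes lie in clusters, and position was examined as a feature that the list did not use. On chromosome 5 (GRCm38), Gabrg1, Gabra2, Gabra4 and Gabrb1 lie in this order between 70751047 and 72149037. Their log2 fold changes were 0.14, -0.10, -0.03 and 0.10, of both signs within the cluster. Gabra4 and Gabrb1 start head to head on opposite strands and share 46 exonic bases. On chromosome 7, Gabrg3 and its neighbour Gabra5 (56716465 to 57510059) were at 0.09 and 0.04, and on chromosome 11, Gabra6 and Gabrb2 (42306437 to 42629028) at -0.03 and 0.05. The X-linked members were Gabra3 and its neighbour Gabrq (72432681 to 72842602) and Glra2, at -0.07, -0.03 and -0.07. Without control replicate 3, the library with Y-linked counts, they were at 0.01, 0.01 and -0.01.

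HUSH has been linked to the silencing of genes without introns, so exon numbers were counted. None of the 27 members was a single-exon gene. The fewest exons in an annotated transcript were 2, for Slc32a1, and the most 27, for Slc12a2, each taken from the transcript with the most exons.

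**Figure D2:**
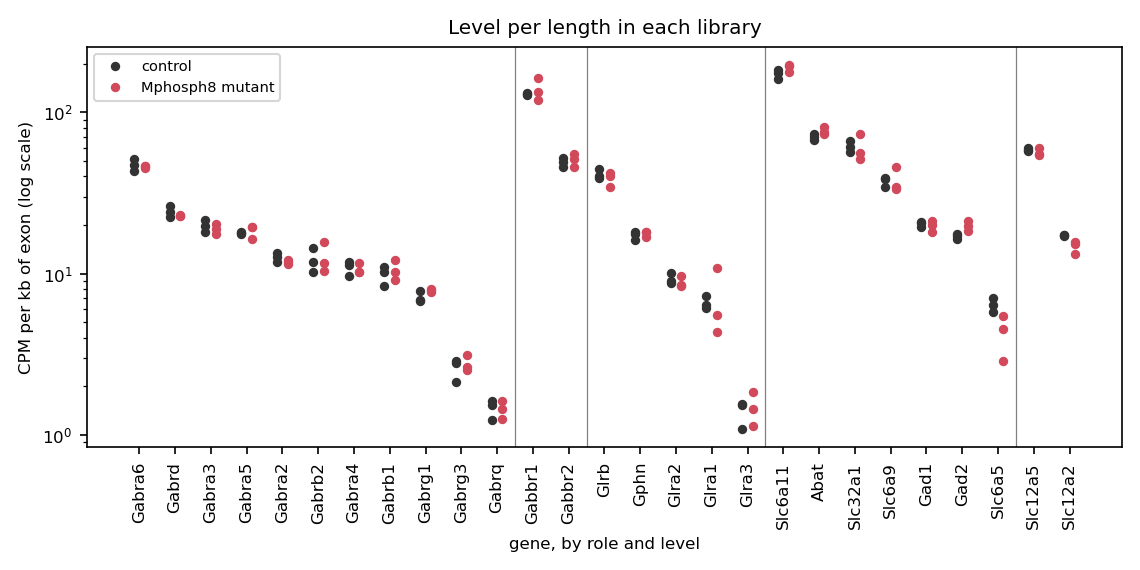
Level of each member in each library as CPM per kilobase of exon (y axis, log scale), with genes ordered by role and by level in controls (x axis); black points are controls and red points mutants. Control means span from 1.39 (Glra3) to 173 CPM per kb (Slc6a11), and the genotypes overlap for all but Slc6a5, Slc12a2, Gad2 and Abat.

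GABA-B receptors couple to G proteins and need both subunits at the cell surface. Gabbr1, which binds GABA, was at 989, 1007 and 1022 CPM in controls and 1275, 932 and 1035 CPM in mutants. Mutant replicate 1 was the highest library and mutant replicate 2 the lowest, while the controls lay close together. Its change of 0.10 ± 0.11 on the log2 scale (adjusted p 0.950) became -0.03 without mutant replicate 1. Gabbr2, which couples the dimer to the G protein, was at 326 ± 20.9 and 338 ± 29.3 CPM, with 0.05 ± 0.09. Gabbr1 made up 72.6% ± 1.11 of the pair's level per kilobase in controls and 73.2% ± 1.54 in mutants.

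Of the glycine receptor genes and gephyrin, all 5 overlapped between genotypes, with log2 fold changes from -0.08 to 0.08. Glrb, the beta subunit that binds gephyrin, was at 192 ± 12 and 181 ± 18.3 CPM, and Gphn, which encodes gephyrin and also acts in molybdenum cofactor synthesis, at 64.7 ± 3.58 and 66.2 ± 2.28 CPM. Glra2, the alpha subunit that prevails before birth, was at 29.1 ± 2.28 and 27.7 ± 2.18 CPM. Glra3 was at 12.8 ± 2.43 and 13.6 ± 3.22 CPM, and its log2 fold change of 0.08 ± 0.17 became -0.11 without mutant replicate 1, -0.07 without control replicate 1 and 0.24 without mutant replicate 3. That of Glrb, -0.08 ± 0.09, became -0.0016 without mutant replicate 3. The intervals of these 4 genes lay within -0.28 and 0.43.

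Glra1, the alpha subunit of mature glycine receptors in the brainstem and spinal cord, had the largest standard error of the members. It is described by library for that reason, a choice made after its values were seen. It was at 17.4, 15.3 and 14.8 CPM in the controls and at 26.1, 13.3 and 10.4 CPM in the mutants. Mutant replicate 1 was above every control and the other 2 mutants were below every control. The log2 fold change was 0.06 ± 0.22 with an adjusted p of 0.990, became -0.42 without mutant replicate 1 (adjusted p 0.223) and 0.31 without mutant replicate 3 (0.999). The log2 ratio of Glra1 to Glra2 counts within a library, which sets the mature against the fetal subunit, was -0.88 ± 0.20 in controls and -0.85 ± 0.58 in mutants. Its mutant values were -0.21, -1.01 and -1.33, on both sides of the controls (-0.71, -0.84 and -1.10).

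The transmitter genes came next. GABA is made from glutamate by the enzymes encoded by Gad1 and Gad2, loaded into vesicles together with glycine by the transporter of Slc32a1, taken up by transporters such as that of Slc6a11, and broken down by the transaminase of Abat. Gad2, whose product GAD65 is tied to synaptic vesicles, was at 96.5, 101 and 104 CPM in the controls and 108, 125 and 115 CPM in the mutants. Every mutant value lay above every control value, though the lowest mutant and the highest control were close. The log2 fold change was 0.21 ± 0.08, a fold of 1.15, with an unadjusted p of 0.0203 and an adjusted p of 0.573.

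Gad1, whose product GAD67 is found throughout the cell, was at 155 ± 5.96 and 152 ± 11.5 CPM, or -0.04 ± 0.08 (adjusted p 0.985). The log2 ratio of Gad2 to Gad1 within a library was -0.73, -0.65 and -0.51 in controls and -0.37, -0.37 and -0.42 in mutants, so the mutants were higher in all 3. That ratio was chosen after the values were seen and was not tested. Slc32a1 was at 172 ± 13.4 and 169 ± 32.7 CPM, with mutant values of 206, 157 and 144 CPM that enclosed the controls. Its log2 fold change of -0.02 ± 0.11 became -0.19 without mutant replicate 1 (adjusted p 0.480) and 0.08 without mutant replicate 3 (0.999). The summed level of 9 markers of GABAergic interneurons overlapped between genotypes, at 321 to 393 CPM in controls and 314 to 372 CPM in mutants, and none of the 9 passed the adjusted threshold. Control replicate 1 had the highest summed level of these markers and the lowest Gad2 level. Among the mutants the order was the same for both. Mutant replicate 2 was the highest (372 CPM for the markers, 125 CPM for Gad2) and mutant replicate 1 the lowest (314 and 108 CPM). The part of interneuron number in the Gad2 values was not tested.

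For uptake and breakdown of GABA, the RNA of Slc6a11 and Abat was compared, and neither process itself was measured. Slc6a11, which encodes the astrocytic GABA transporter and had the highest level per kilobase of the 27 genes, was at 815, 921 and 888 CPM in controls and 978, 892 and 989.8 CPM in mutants. Mutant replicate 2 lay among the controls and the other mutants above them. The difference was 0.12 ± 0.09 on the log2 scale (adjusted p 0.913). Abat was at 546, 570.1 and 518 CPM in controls and 571, 588 and 631 CPM in mutants. Its groups did not overlap, but mutant replicate 1 was nearly level with control replicate 2. The difference was 0.13 ± 0.09 (log2, adjusted p 0.903). The summed level of 7 astrocyte markers overlapped between genotypes, at 4840 to 5458 CPM and 5128 to 5799 CPM.

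The largest difference among the members was that of Slc6a5, which encodes GlyT2, the transporter by which glycinergic neurons of the hindbrain and spinal cord take up their transmitter. It was at 46.2, 41.6 and 50.7 CPM in the controls and 39.2, 32.5 and 20.7 CPM in the mutants. All 3 mutants were below all 3 controls, and mutant replicate 3 was far below the other 2. The log2 fold change was -0.59 ± 0.15, a mutant level of 0.665 of the control level, with a 95% interval of -0.91 to -0.26. The unadjusted p was 0.00135 and the adjusted p 0.139 in edgeR, and DESeq2 gave the same -0.59 with an adjusted p of 1.

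The Slc6a5 result moved with 2 mutant libraries. Without mutant replicate 3 the log2 fold change was -0.37 with an adjusted p of 0.491, and without mutant replicate 1, the mutant with the highest level, it was -0.80 with an adjusted p of 0.00364. Mutant replicate 3 is the library with little Hox RNA. Of the 14 Hox genes, 13 were detected and all 13 had their lowest CPM there, although Hoxa2 had 4 counts in both mutant replicates 2 and 3. In mutant replicate 3, Hoxb8, had 10 counts against 58 to 142 in the other libraries, while Hoxd4 was at 0 in every library. Of the 14, 12 were tested, with a median log2 fold change of -0.49, and none passed the adjusted threshold between genotypes. Mutant replicate 3 held the lowest value for 7 of the 27 members (25.9%, against 17.8% of all genes). These were Slc6a5, Glra1, Glra2 and Glrb of the glycine genes, and Gabra3, Slc32a1 and Slc12a2, whereas Glra3 was lowest in control replicate 1. In mutant replicates 1 and 2 the summed Hox level, at 31.3 and 34.8 CPM, lay in the control range of 30.3 to 35.0 CPM. Without Hoxb8, a sum chosen after the values were seen, the other 12 detected genes were at 23.6 and 24.2 CPM in these 2 mutants, below the controls (24.8 to 26.4 CPM), and at 7.63 CPM in mutant replicate 3. Hoxb8 itself was not lower in these 2 mutants, at 96 and 142 counts against 58, 126 and 101 in the controls. The lower sum in mutant replicates 1 and 2 thus rests on leaving Hoxb8 out and is no result about genotype. The part of hindbrain tissue in the Slc6a5 difference was not tested.

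**Figure D3:**
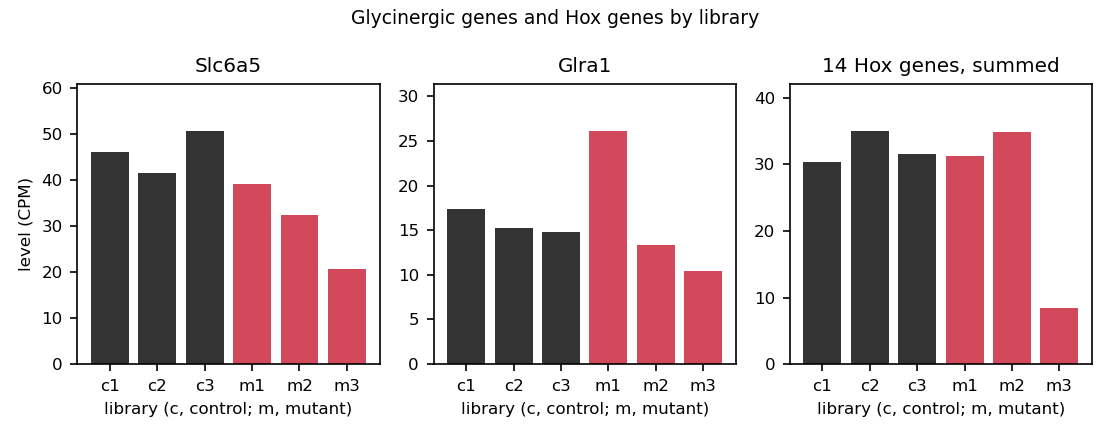
Levels in CPM (y axes, from 0) of Slc6a5, Glra1 and the sum of 14 Hox genes in each library (x axes; black, controls; red, mutants; 1 bar per library). Mutant replicate 3 is the lowest in all 3 panels (20.7, 10.4 and 8.36 CPM), and mutant replicate 1 is the highest for Glra1 (26.1 CPM).

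Slc6a9, the glycine transporter found mainly on glia, was at 197, 201 and 176 CPM in controls and 235, 172 and 178 CPM in mutants. Mutant replicate 1 was the highest library and mutant replicate 2 the lowest. Its log2 fold change was 0.02 ± 0.11 (adjusted p 0.992), and -0.13 without mutant replicate 1 or -0.03 without control replicate 3. Within each library the log2 ratio of Slc6a5 to Slc6a9 was -2.05 ± 0.24 in controls and -2.69 ± 0.36 in mutants. That of Slc6a5 to Slc32a1, the vesicular transporter that glycinergic and GABAergic neurons share, was -1.90 ± 0.13 and -2.49 ± 0.28, lower in every mutant than in any control. Both ratios were chosen after the values were seen and were not tested.

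The chloride transporters set the driving force of all GABA-A and glycine channels. Slc12a2 encodes the importer NKCC1, which is also abundant in choroid plexus, and was at 186, 188 and 190.1 CPM in the controls and 167, 172 and 145 CPM in the mutants. The controls were closely spaced, and every mutant lay below them, mutant replicate 3 most. The log2 fold change was -0.22 ± 0.08, a mutant level of 0.858 of the control level, with an unadjusted p of 0.0152 and an adjusted p of 0.510. Without mutant replicate 3 it was -0.15 with an adjusted p of 0.999. Slc12a5, which encodes the neuronal exporter KCC2, was at 432, 428 and 447 CPM against 449, 405 and 413 CPM, or -0.04 ± 0.08 (adjusted p 0.982), and its groups overlapped.

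The log2 ratio of Slc12a5 to Slc12a2 within a library was 1.22, 1.19 and 1.23 in controls and 1.43, 1.24 and 1.51 in mutants. All mutants were above the controls, mutant replicate 2 only just, and the means were 1.21 ± 0.02 and 1.39 ± 0.14. Because Slc12a5 differed little, this ratio mainly restates the Slc12a2 difference and is not a separate result. It was not tested. Slc12a2 is also expressed outside neurons, and markers of other cells were summed. The summed level of 5 choroid plexus markers was 1442 to 1735 CPM in controls and 1067 to 1275 CPM in mutants, mostly from Ttr, and none of the 5 passed the adjusted threshold. Ttr alone separated the genotypes (-0.45 on the log2 scale), and Folr1, Kl, Clic6 and Aqp1 overlapped, at -0.18, -0.25, 0.03 and -0.02. The 8 oligodendrocyte markers summed to 21576 to 25839 CPM in controls and 17129 to 19850 CPM in mutants, with 2 of the 8, Mog and Cldn11, lower at the adjusted threshold and none at 0. The 4 markers of oligodendrocyte progenitors overlapped, at 537 to 563 and 504 to 565 CPM. The part of these cells in the Slc12a2 values was not tested.

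**Figure D4:**
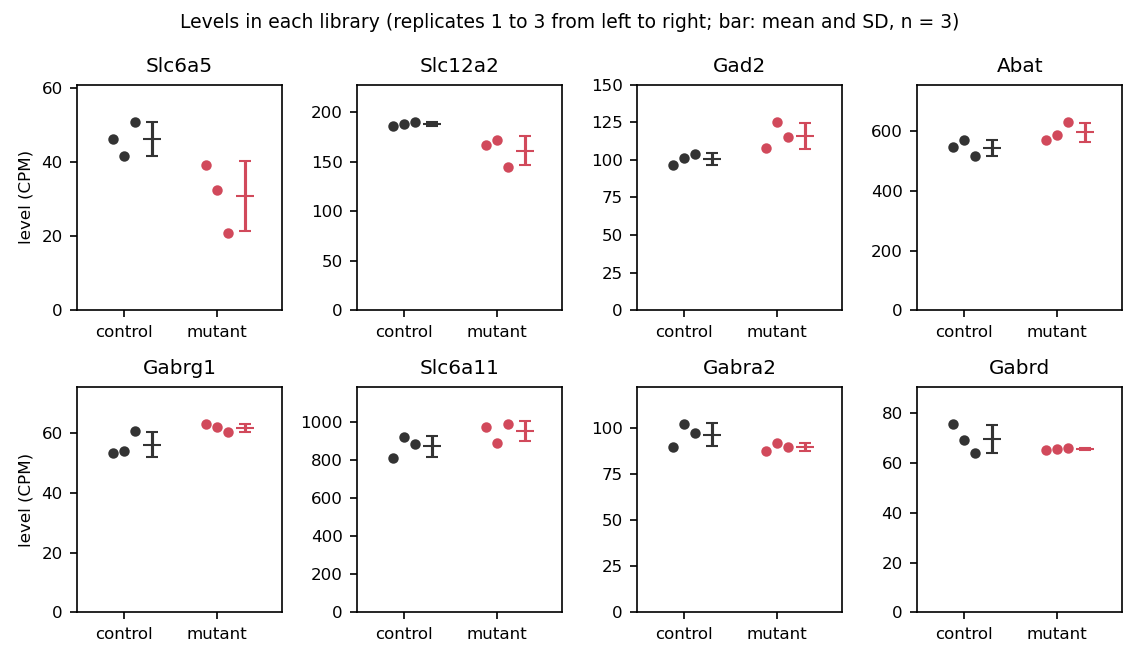
Level in CPM (y axes, from 0) of the 8 members with the smallest unadjusted p or with groups that do not overlap, in each control (black) and mutant (red) library; horizontal ticks with bars give mean and SD, n = 3. Slc6a5 and Slc12a2 are lower and Gad2 and Abat higher in all 3 mutants, and the groups overlap for Gabrg1, Slc6a11, Gabra2 and Gabrd.

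Leaving out 1 library changed which members separated. Without mutant replicate 1, 6 members were lower in the remaining mutants than in any control, namely Slc32a1, Slc6a5, Glra1, Glra2, Slc12a2 and Slc12a5 (22.2% of members against 12.9% of all genes), and the median log2 fold change of the 27 went from 0.02 to -0.08. Without mutant replicate 2, 5 members were higher than any control, namely Gabra5, Gabbr1, Gad2, Slc6a11 and Abat (18.5% against 12.7%). These were the largest such counts. Every other count with 1 library left out was 2 or 3 members (7.41% or 11.1%, against 8.71% to 12.6% of all genes). Without mutant replicate 3 it was 3 higher (11.1% against 9.22%) and 2 lower (7.41% against 8.71%). Gad2 and Abat stayed higher, and Slc6a5 and Slc12a2 lower, whichever library was left out. That outcome was fixed, because groups that do not overlap cannot come to overlap when a library is removed. The counts could therefore only stay the same or rise.

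The wider pathway was counted too. Of 53 further genes of receptor subunits, trafficking, auxiliary GABA-B subunits, transport, GABA and glycine metabolism and chloride transport, 48 were tested. The 5 not tested were Gabrp, Gabrr1, Gabrr2, Gabrr3 and Glra4, with at most 9 counts in any library, too few to tell a moderate difference. None of the 48 passed the adjusted threshold in edgeR or DESeq2, and 3 in edgeR (6.25%, against 6.51% of all genes) and 2 in DESeq2 had an unadjusted p under 0.05. Their log2 fold changes ran from -0.42 to 0.18 with a median of -0.002. In 3 genes (6.25%, against 6.23% of all genes) the mutants were all higher and in 3 (6.25% against 5.42%) all lower, so these counts were near the background.

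The 5 with the smallest p were Slc38a5, Plcl1, Iqsec3, Gabre and Aldh5a1. Slc38a5, an amino acid transporter that carries glutamine and glycine, was at 19.4, 17.4 and 19.1 CPM in controls and 16.1, 15.6 and 13.1 CPM in mutants, at -0.32 ± 0.11 with an adjusted p of 0.455. Plcl1, which encodes a protein that binds GABA-A receptor subunits, was at -0.21 ± 0.09 (adjusted p 0.711) and lower in every mutant. Iqsec3, a gephyrin partner at inhibitory synapses, was at 0.18 ± 0.09 (0.759), and its groups overlapped. Gabre, the epsilon subunit, was at 3.66, 3.81 and 4.18 CPM against 3.20, 2.31 and 3.20 CPM, or -0.42 ± 0.21 (0.801). Aldh5a1, which acts after Abat in GABA breakdown, was at 197, 214 and 212 CPM against 222, 224 and 234 CPM, higher in every mutant, as Abat was, at 0.13 ± 0.08 (0.882).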

How the data were processed

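RNA of 6 whole brains was profiled, with 3 libraries per genotype. Libraries of polyA RNA were read from 1 end over 50 bases. After trimming with Trim Galore 0.5.0, the authors used Bowtie2 2.3.4.1 to discard ribosomal, mitochondrial, phiX and adapter reads. STAR then mapped what was left (GRCm38), and featureCounts (Subread 1.6.2) assigned it to Ensembl genes. The authors deposited whole-number counts, with no normalisation applied. The strand setting is not given in the sources used here.

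Counts were tested with edgeR 4.0.16 (R 4.3.3), using filterByExpr, TMM normalisation, the quasi-likelihood F test with genotype as the only term, and Benjamini-Hochberg adjustment over all 16731 genes tested. The threshold was an adjusted p of 0.05. Standard errors were derived from the F statistic. The 95% intervals used the total degrees of freedom of the quasi-likelihood fit, which add a prior shared across genes to the residual ones. CPM use the effective library size, and levels per kilobase divide by the union of annotated exons. Symbols and coordinates came from GENCODE M21, which matched 54495 identifiers. Within each group, chi-square per degree of freedom between 2 libraries was 3.67 to 13.6, above counting noise, so each was kept as its own replicate. That samples of a group are separate brains comes from the series description.

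Transcripts were cut into words of 50 bases. In 6 members some words also occurred in another gene, at most 2.46% (Glrb). In 7 members some exonic bases lay opposite another gene, so their counts depend on the strand setting. These were Gabra4, Gabra5, Gabrb1, Slc32a1, Slc6a9, Gphn and Glra1.

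The members and gene lists were chosen with earlier results of these data known. Values in every library were given for members with an unadjusted p under 0.05 or groups without overlap, filled up by p to 8, and for members whose libraries diverged, which were added after their values were seen. Alternatives were RLE size factors, DESeq2 1.42.0, no filter on low counts, each library left out, and the replicate number as a block. The edgeR steps were tested on simulated data.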

Additional observations from a re-analysis of the deposited data

How the results depend on the processing

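RLE size factors and DESeq2 1.42.0 left all 27 members outside the adjusted threshold and changed no sign. The number of members past it was 0. It was 1 without the low-count filter (Slc6a5, adjusted p 1.48e-06, log2 fold change -0.59) and 0 to 1 in the 6 fits without 1 library, with Slc6a5 the member without mutant replicate 1. For the same -0.59 DESeq2 gave an adjusted p of 1, so that over all alternatives it ran from 1.48e-06 to 1. The cause of these differences was not tested. No member reached a 2-fold change past the threshold, and none of the 48 other pathway genes passed it, under any alternative run.

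Without 1 library the median log2 fold change of the members ran from -0.08 to 0.05, the members higher in all mutants numbered 2 to 5 and those lower 2 to 6. The log2 ratio of Slc12a5 to Slc12a2 (mutant minus control, 0.18) ran from 0.12 to 0.26, and that of Glra1 to Glra2 (0.03) from -0.29 to 0.27. Of the 27 members, 12 kept their sign in these fits and 15 did not. The latter ran from -0.13 to 0.01 for Gabra3, -0.11 to 0.02 for Gabra4, -0.10 to 0.02 for Gabra6, -0.01 to 0.19 for Gabrb1, -0.14 to 0.19 for Gabrb2, -0.03 to 0.16 for Gabrg3, -0.14 to 0.06 for Gabrq, -0.03 to 0.20 for Gabbr1, -0.01 to 0.11 for Gabbr2, -0.09 to 0.02 for Gad1, -0.19 to 0.08 for Slc32a1, -0.13 to 0.11 for Slc6a9, -0.01 to 0.07 for Gphn, -0.42 to 0.31 for Glra1 and -0.11 to 0.24 for Glra3.

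Both groups use the replicate numbers 1 to 3. Deviations from the group means correlated at 0.10, -0.05 and 0.08 between libraries of equal number, so the numbers were not taken as pairs. The paper describes the control and mutant brains as littermates, but the labels do not give the litters. A shared litter in another order was therefore not tested. In the fit with a replicate block 0 members passed the threshold, Slc6a5 had an adjusted p of 0.0507, and Glra1 was at -0.0031.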
